A study of Mus musculus with 20 samples.

Results

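The comparison described here is that of benzo[a]pyrene (B[a]P) against its vehicle in the testis of wild type (Wt) mice. Its members were chosen by their sample titles and are 10 of the 20 arrays of the series, 5 Wt B[a]P and 5 Wt control mice. Both groups were male C57BL/6 mice. The exposed mice were gavaged once with B[a]P at 13 mg/kg bw and the controls with sunflower oil, and whole testes were collected 4 days later. Each array held Cy5 labelled RNA of 1 mouse together with a Cy3 labelled pool of 3 unexposed Wt mice that are not among the samples. The other 10 arrays came from Xpc-/- mice, which lack a damage recognition protein of nucleotide excision repair, under the same 2 treatments. Age was not given in the sources used here. Since a whole testis holds germ cells of all stages beside Sertoli, Leydig, peritubular, vascular and immune cells, fewer cells of a type and less RNA per cell cannot be told apart in any value below.

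Smoke and charred food contain B[a]P, which belongs to the polycyclic aromatic hydrocarbons. It binds the aryl hydrocarbon receptor (AhR), a transcription factor that induces the enzymes of the Cyp1 family, and these oxidise B[a]P to a diol epoxide that forms bulky adducts on guanine in DNA. In many tissues such adducts are known to activate p53 and its targets, and they are removed by nucleotide excision repair or bypassed by translesion polymerases. In the testis, damage to dividing spermatogonia and meiotic cells can appear later in the cells that develop from them, and Leydig cells make the androgens that these cells need.

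The values are the authors' normalised spot signals turned to log2, so a difference of 1 is a doubling. They cover 20868 probes, of which 18303 carry 1 gene symbol. Within each Wt group the arrays correlated at 0.986 to 0.994 over all probes, and between the groups at 0.981 to 0.992. On the leading principal component of the 10 Wt arrays, which held 24.1% of the variance, the controls lay between 3.7 and 21.4 and the exposed mice between -19.7 and -1.9, without overlap. As a check of the tissue, 0 of 46 genes of round spermatids and the acrosome and 3 of 47 sperm flagellum genes lay in the dimmest of 4 equal bins of probes by signal. In the Xpc-/- group, the arrays of control 1 and 2 stood apart from all others, and in the Wt comparison they entered only the estimate of the spread.

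At 4 days, 103 probes had risen and 42 had fallen in the exposed Wt testes (limma, Benjamini-Hochberg adjusted p under 0.05). These are 0.494% and 0.201% of all probes, or 0.695% together. The counts and their balance differed with the arrays fitted and with their weights. There were 291 rises and 237 falls when only the 10 Wt arrays were fitted, and 367 and 336 with array weights. Both fits kept all 145 calls. The changes were small, with a median of 1.43-fold among the rises (range 1.32 to 2.35) and of 0.697-fold among the falls (range 0.564 to 0.748). Only 24 rises exceeded 1.5-fold and 9 falls exceeded the same fold downwards. For 92 of the 103 rises all 5 exposed mice lay above all 5 controls, against 2.39% of all probes, and for 39 of the 42 falls all exposed mice lay below, against 1.86%. These shares are a description, since the test that called the probes uses the same values. The p-values of the 145 calls weigh each difference against the spread between mice within the groups. That spread was estimated from all arrays of the series, the Xpc-/- arrays included.

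The calls lay among abundant transcripts. Ordered by mean signal and divided into 4 bins of 5217 probes, the brightest bin held 95 rises and 29 falls, the next 7 and 13, the third 1 and 0, and the dimmest 0 and 0. The dimmest bin ended at a log2 signal of 6.91, close to the lower end of the scale, where a change of an expressed gene cannot be seen well. Over all probes the median change was 0.000 and 50.1% of the changes were positive. The authors had given all scans the same distribution, so these values cannot show a shift of all genes.

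The number of calls rested on single mice. Without control 4 or control 5, 16 and 17 probes rose and 1 and 2 fell. Without control 1 or 2, the rises were 54 and 44 and the falls 13 and 9. Without B[a]P 1, 2 or 3, the rises were 26, 34 and 28 and the falls 4, 9 and 21, and without B[a]P 5 they were 84 and 18. Without control 3 they were 114 and 38, and without B[a]P 4 they were 150 and 41. Without both controls 4 and 5, no probe was called by limma, and 1281 had an unadjusted p under 0.05 against 2231 with all mice. Every one of the 145 probes kept its direction in each of the 10 fits that left out 1 Wt array. Of the 145, 58 kept the call in at most 2 of these fits, and 13 kept it in all 10, 12 of them rises. These 13 include Klk1b11, Kif20a, Phospho2, Chl1, Hnrnpf, Rpl7, Adam1b, Ide, Bag1 and Grsf1 among the rises, and Ndufa9 as the sole fall. Chl1, a cell adhesion molecule, and Grsf1, a G-rich RNA-binding protein, are named here because of this, after their values were seen, and the other 2 probes carry no symbol.

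**Figure D1:**
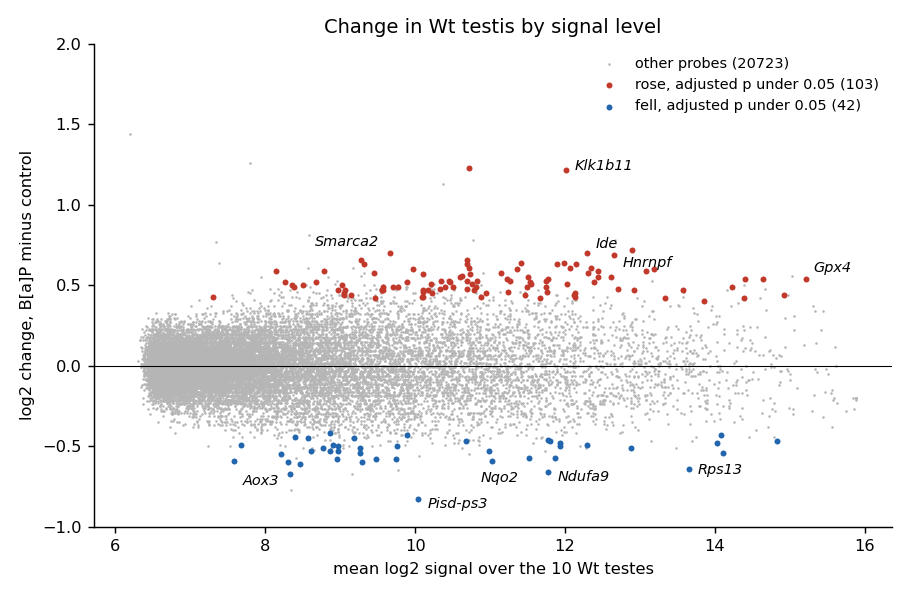
Log2 change (Wt B[a]P minus Wt control) of every probe against its mean log2 signal over the 10 Wt testes. The 103 rises (red) and 42 falls (blue) lie mostly at high signal, and Klk1b11 and Pisd-ps3 are the named genes farthest from 0 among them.

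The named gene that rose most was Klk1b11, which encodes a kallikrein 1-related serine protease. Its log2 signal was 11.82, 11.56, 12.41, 10.77 and 10.45 in controls 1 to 5 and 12.70, 12.67, 12.68, 12.53 and 12.54 in the exposed mice. The exposed mice thus lay within a narrow band above a control group that was spread widely, and the 2 groups did not overlap. The change was 1.22 (SE 0.21, 2.33-fold, adjusted p = 0.00555 by limma), with means of 11.40 ± 0.79 and 12.62 ± 0.08 (SD, n = 5 each). Kallikrein genes are close copies of each other, so the probe may also have bound transcripts of related genes. Of the 10 family members measured, only Klk1b11 passed the test, and the median change of the 10 was 0.27 against 0.00 over all named genes. Klk1b27 was higher by 0.78 (adjusted p = 0.0989) and Klk1, the tissue kallikrein, by 0.58 (adjusted p = 0.0742), neither passing the test, while Klk1b8 was at -0.26 and Egfbp2 at -0.08.

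The wide control spread of Klk1b11 moved with the markers of Leydig cells. The mean of 18 Leydig markers, relative to the Wt control average, was 0.12, 0.06, 0.45, -0.27 and -0.36 in controls 1 to 5, and 0.12, 0.05, 0.07, 0.19 and 0.17 in the exposed mice. Control 3 was high and controls 4 and 5 low in both, so the exposed mice lay inside the control range for the markers. The summed signal of the markers ran from 10280 to 21130 in the controls and from 14287 to 16726 in the exposed mice. None of the 18 rose or fell, and their median change was 0.08. Cyp17a1, the steroid 17-alpha-hydroxylase of androgen synthesis, was at 11.17 ± 0.45 and 11.63 ± 0.17, with a difference of 0.46 (adjusted p = 0.238). Ptgds and Fdx1, which with Cyp17a1 were the brightest of the markers, changed by 0.09 and 0.00. With the marker mean as a covariate, an alternative chosen after seeing the data, the rise of Klk1b11 was 0.96 (adjusted p = 0.000162) and the counts were 52 rises and 12 falls. Without controls 4 and 5, also left out after seeing the data, Klk1b11 was higher by 0.69 (adjusted p = 0.175) and Hnrnpf by 0.62 (adjusted p = 0.175). Over all 21 alternatives the adjusted p of Klk1b11 ran from 7.47e-05 to 0.175. Whether Leydig cell content took part in the rise was not tested beyond this fit.

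**Figure D2:**
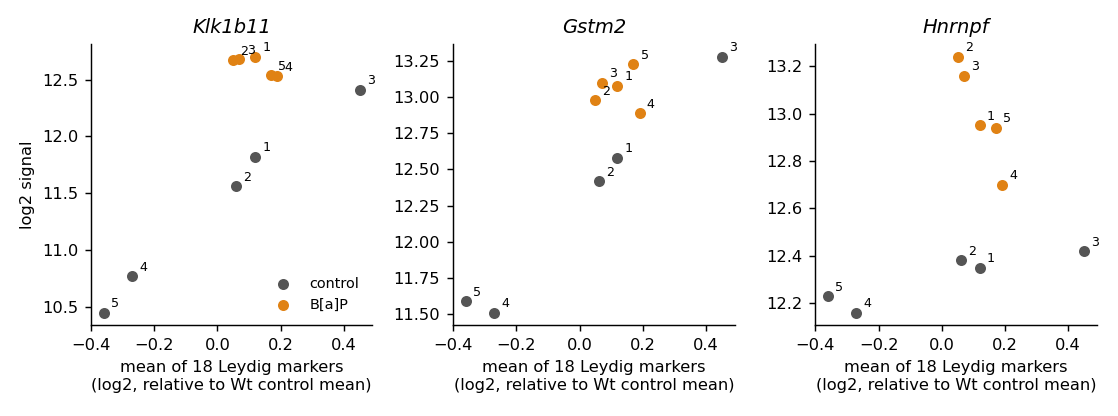
Log2 signal of Klk1b11, Gstm2 and Hnrnpf in each Wt mouse (number beside the point) against the mean of 18 Leydig cell markers, in log2 relative to the Wt control mean. Controls (grey) of Klk1b11 and Gstm2 spread along the marker axis with controls 4 and 5 lowest, whereas the 5 exposed mice (orange) lie between 0.05 and 0.19 on it, and all 5 controls of Hnrnpf lie below all exposed mice.

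The next genes by the size of their rise included Hnrnpf and Smarca2. Hnrnpf, an hnRNP that acts in splicing and polyadenylation, was at 12.35, 12.38, 12.42, 12.16 and 12.23 in the controls and at 12.95, 13.24, 13.16, 12.70 and 12.94 in the exposed mice. The groups were clearly separated, and the rise was 0.69 (SE 0.11, 1.61-fold, adjusted p = 0.00551). Smarca2, the BRM ATPase of SWI/SNF remodelling complexes, was at 9.28, 9.59, 9.47, 9.10 and 9.17 in the controls and at 10.02, 10.12, 10.35, 9.84 and 9.76 in the exposed mice. It rose by 0.70 (SE 0.13, adjusted p = 0.00937), with no overlap, but its other probe, of similar level, was at -0.26 (unadjusted p = 0.207), so the probes of Smarca2 disagreed. The call of Smarca2 was lost in 1 of the 10 fits without a mouse, where the adjusted p was 0.0505.

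Ide, which encodes the insulin-degrading metalloprotease, was at 12.07, 11.96, 12.06, 11.99 and 11.62 in the controls and at 12.73, 12.73, 12.81, 12.46 and 12.49 in the exposed mice. All exposed mice lay above all controls, and control 5 was the lowest. The rise was 0.70 (SE 0.12, 1.63-fold, adjusted p = 0.00551). The protein handling genes Ufsp2, a UFM1-specific protease, and Ubxn4, a UBX protein of endoplasmic reticulum-associated degradation, rose by 0.66 (adjusted p = 0.00937) and 0.60 (adjusted p = 0.0147). The remaining large rises were those of Tnrc18, a nuclear protein (0.66), Phospho2, a phosphatase (0.64), Adora3, the adenosine A3 receptor (0.63), Dzip1, a zinc finger protein of the ciliary base (0.63), Bbx, an HMG box protein (0.61), and Mmel1, a membrane metalloendopeptidase (0.61). Of these, Adora3 was the only one whose groups overlapped, since B[a]P 4 was at 11.74 and control 1 at 11.75. The probe with the largest rise, 1.23 (adjusted p = 0.0118), carries no gene symbol and was picked out after its values were seen.

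**Figure D3:**
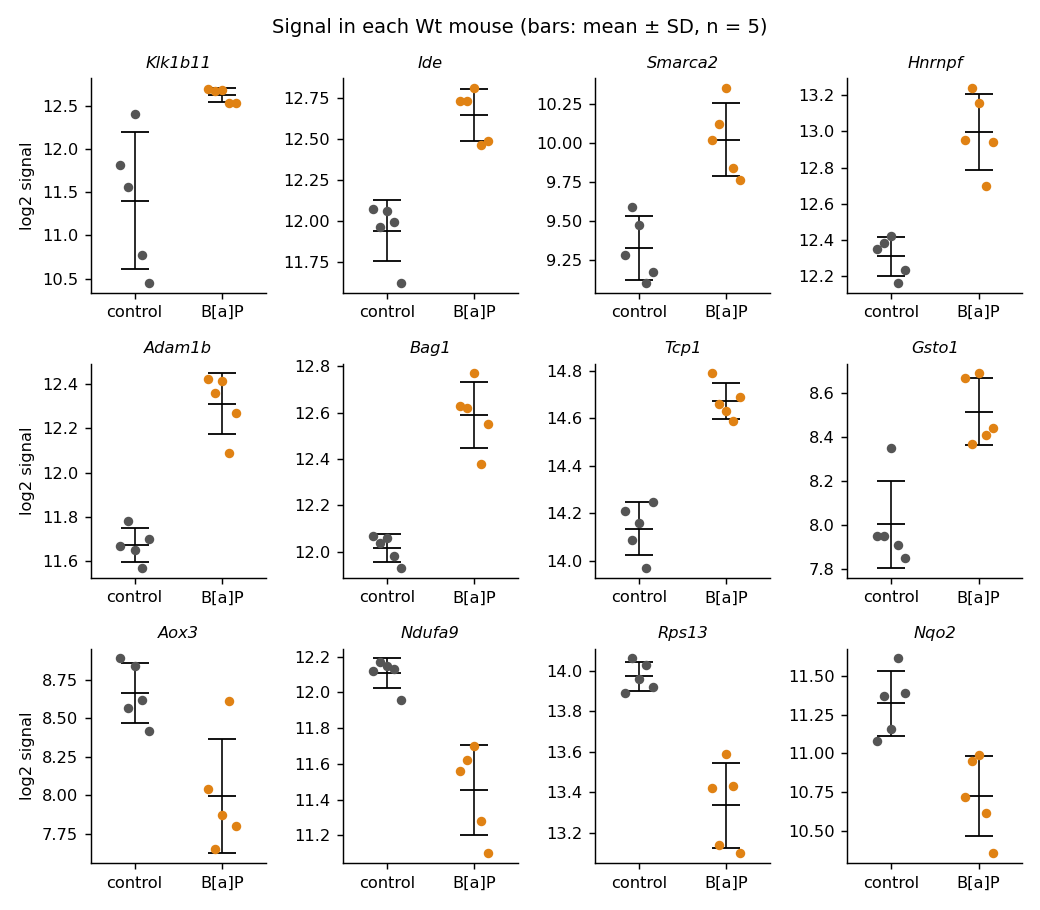
Log2 signal of 12 called genes in each Wt mouse, with mean and SD of each group (n = 5). The upper 8 genes rose and the lower 4 fell, with the vertical axis of each panel cut to its own range. Only Aox3 shows an overlap, through B[a]P 4 at 8.61.

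The largest fall of a named gene was that of Pisd-ps3, a pseudogene of the mitochondrial phosphatidylserine decarboxylase Pisd. It was at 10.52, 10.60, 10.27, 10.45 and 10.45 in the controls and at 9.58, 9.79, 9.78, 9.88 and 9.11 in the exposed mice, all of which lay below the controls. The fall was -0.83 (SE 0.20, 0.564-fold, adjusted p = 0.0492), and it was called in 1 of the 10 fits without a mouse and in 6 of all 21 alternatives. A dimmer probe of Pisd-ps3 was at 0.09, whereas the probe of Pisd itself, looked up after the values of Pisd-ps3 were seen, was at -0.65 (adjusted p = 0.083). The sequences of a pseudogene and its parent are near copies, so the signal of the called probe cannot be given to either with certainty.

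Ndufa9, a subunit of respiratory complex I, was at 12.12, 12.17, 12.15, 12.13 and 11.96 in the controls and at 11.56, 11.62, 11.70, 11.28 and 11.10 in the exposed mice. The controls were tightly grouped and lay above every exposed mouse, and Ndufa9 fell to 0.635-fold (log2 -0.66, SE 0.11, adjusted p = 0.00555). Aox3, an aldehyde oxidase of drug and aldehyde metabolism, was at 8.89, 8.57, 8.84, 8.62 and 8.42 in the controls and at 8.04, 7.65, 7.87, 8.61 and 7.80 in the exposed mice. Here B[a]P 4 remained within the control range, and the fall of -0.67 (SE 0.16, adjusted p = 0.0447) was called in 1 of the 10 fits without a mouse. Fancd2os, named for its place opposite Fancd2, fell by 0.58 (adjusted p = 0.0236), with control 4 at 10.49 above the other controls at 9.89 to 9.95.

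The other large falls were of genes with varied roles. Rbm25, a splicing regulator, fell by 0.61 (adjusted p = 0.0187), but a brighter probe of Rbm25 was at 0.29 (unadjusted p = 0.0128). Thoc2l, like Thoc2 of the mRNA export complex THO, fell by 0.60 (adjusted p = 0.0103) and Alyref, an mRNA export adaptor, by 0.53 (adjusted p = 0.044). Cypt3, of the cysteine-rich perinuclear theca family of spermatids, fell by 0.54 (adjusted p = 0.0294). Czib, a zinc-binding protein (-0.60), Tspan33, a tetraspanin (-0.58), Crybg3, a beta-gamma crystallin domain protein (-0.57), and Riok1, an atypical kinase of ribosome maturation (-0.54), complete the 15 named genes that fell most, beside list members given below.

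Over the genes with a called probe, 17 pairs with another probe of the same gene could be set side by side. No other probe passed the test. The sign was the same in 8 pairs and opposite in 9. Among the 9 pairs whose other probe lay in the brighter 2 of the 4 bins, it was the same in 4, as for Akap9 (-0.51 and -0.44) and Bbx (0.61 and 0.18), and opposite in 5, as for Zc3h15 (0.51 and -0.15). A call therefore speaks for its probe, and probes of a gene can measure different transcripts.

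Within the exposed group, the rises were not even between mice. Over the 103 probes that rose, the median level above the control mean was 0.57, 0.58, 0.67, 0.33 and 0.45 in B[a]P 1 to 5. B[a]P 4 was the exposed mouse nearest the controls in 77 of the 103. Among the controls, control 4 was lowest in 49 and control 5 in 41 of the 103, so these mice lay on the far side from the exposed group. Over the 42 falls the medians in B[a]P 1 to 5 were -0.52, -0.53, -0.42, -0.57 and -0.60, and B[a]P 3 was nearest the controls in 17.

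The gene lists put these genes in their pathways. The brightest probe stood for each gene, and by it 97 of 16966 named genes rose (0.572%) and 37 fell (0.218%). At an unadjusted p under 0.05 (limma), 1963 of the 16966 were found, 977 higher and 986 lower. Of 1169 genes on 35 lists, 34 were called, in 17 of the lists. No list had more than 5 called genes.

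AhR and its targets did not move measurably. None of 11 genes rose or fell, none had an unadjusted p under 0.05, and their changes ran from -0.08 to 0.12 with a median of -0.01. Cyp1a1, the AhR target enzyme that oxidises B[a]P, was at 6.45, 6.51, 6.32, 6.53 and 6.34 in the controls and at 6.41, 6.40, 6.32, 6.30 and 6.51 in the exposed mice. The groups covered the same range, at the dim end of the scale, and the 95% interval of the change was -0.25 to 0.16. Cyp1b1, a related monooxygenase, was at -0.04 (interval -0.27 to 0.20) and Nqo1, a quinone reductase, at -0.02 (interval -0.28 to 0.24). The brightest genes of the list were Nfe2l2, the oxidative stress factor NRF2 (0.11), Tiparp, an AhR-induced ADP-ribosyltransferase (0.03), and Cyp2s1, a cytochrome P450 (0.12). A probe near the lower end of the scale bounds a change only weakly, which limits the values of Cyp1a1, Ahrr and Ahr, all in the dimmest bin.

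The sequence that AhR binds has the core GCGTG. It is shown here in 3 promoters, for the AhR target Cyp1a1, for Klk1b11 as the named gene that rose most, and for the oxidase Aox3 that fell. Each runs from 250 bases before to 50 bases after the start site (RefSeq, GRCm38.p6), is written 5′ to 3′ on the gene's strand, and has GCGTG or its reverse complement CACGC in capitals. Cyp1a1 lies at chr9:57697363-57697662, Klk1b11 at chr7:43995627-43995926 and Aox3 at chr1:58112886-58113185, all on the plus strand.
Cyp1a1: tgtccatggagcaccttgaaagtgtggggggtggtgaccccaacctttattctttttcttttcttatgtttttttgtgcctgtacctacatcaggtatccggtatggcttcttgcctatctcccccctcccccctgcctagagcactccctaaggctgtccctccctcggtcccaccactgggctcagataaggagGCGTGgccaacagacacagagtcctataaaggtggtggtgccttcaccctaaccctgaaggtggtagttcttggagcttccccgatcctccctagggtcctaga
Klk1b11: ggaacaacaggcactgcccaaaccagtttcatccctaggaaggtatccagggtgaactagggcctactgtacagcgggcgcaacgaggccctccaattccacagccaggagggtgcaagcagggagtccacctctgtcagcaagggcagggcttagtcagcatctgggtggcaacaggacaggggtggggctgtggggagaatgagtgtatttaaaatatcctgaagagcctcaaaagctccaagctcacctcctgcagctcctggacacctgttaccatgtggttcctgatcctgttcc
Aox3: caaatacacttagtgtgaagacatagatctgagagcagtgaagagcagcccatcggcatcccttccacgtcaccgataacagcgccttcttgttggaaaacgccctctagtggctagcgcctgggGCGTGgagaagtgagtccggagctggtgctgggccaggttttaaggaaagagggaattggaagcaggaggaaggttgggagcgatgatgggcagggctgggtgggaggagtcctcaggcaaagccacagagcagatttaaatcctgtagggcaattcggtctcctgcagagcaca
The cores are 1 in Cyp1a1, 0 in Klk1b11 and 1 in Aox3. Promoters were found for 82 of the genes that rose, and 59 of their 111 promoters (53.2%) held the core on either strand. The share was 47.1% of 34 promoters for genes that fell, 55.6% of 9 for the AhR list, 49.8% for genes whose brightest probe lay in the brightest bin, 42.8% for all genes on the array and 32.4% for all 32851 promoters of the table. A match is a string of letters and shows no binding.

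Of 25 conjugation and redox enzymes, 1 rose and 1 fell, with a median of 0.08. Gsto1, an omega-class glutathione transferase, was at 7.95, 7.95, 8.35, 7.91 and 7.85 in the controls and at 8.67, 8.37, 8.69, 8.41 and 8.44 in the exposed mice. All exposed mice lay above the controls, though only just above control 3, and Gsto1 rose by 0.52 (SE 0.11, 1.43-fold, adjusted p = 0.0236). Nqo2, a quinone reductase that uses dihydronicotinamide riboside, was at 11.08, 11.37, 11.16, 11.61 and 11.39 in the controls and at 10.72, 10.95, 10.99, 10.62 and 10.36 in the exposed mice. It fell by 0.59 (SE 0.13, 0.663-fold, adjusted p = 0.026), without overlap. Gstm2, a mu-class glutathione transferase, was higher by 0.78 without passing the test (adjusted p = 0.0582), and its controls spread as the Leydig markers did, from 11.51 in control 4 to 13.28 in control 3. Outside the list, and named after their values were seen, Mgst2, a microsomal glutathione transferase, fell by 0.53 (adjusted p = 0.0203) and Gpx4, a glutathione peroxidase of sperm, rose by 0.54 (adjusted p = 0.0148).

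The lists of DNA damage response genes gave no call. None of 24 p53 targets passed the test, with a median of -0.01 and changes from -0.27 to 0.31. The smallest changes called for any probe were 1.32-fold up and 0.748-fold down, so changes of the size seen in these 24 genes were not detectable here. Mdm2, the ubiquitin ligase that restrains p53, was at 9.95, 9.82, 9.84, 9.73 and 9.86 in the controls and at 9.94, 10.13, 9.97, 10.21 and 10.10 in the exposed mice. The exposed mice tended to the upper side with B[a]P 1 inside the control range, and the difference was 0.23 (interval -0.04 to 0.51, adjusted p = 0.60). Cdkn1a, the p21 inhibitor of cyclin-dependent kinases, was at -0.14 (interval -0.35 to 0.07). Sesn2 and Ddit4, stress regulators of mTOR signalling and with Mdm2 the brightest genes of the list, were at -0.02 each. No call was made among 36 nucleotide excision repair, 15 translesion synthesis, 18 base excision repair and 35 double strand break and crosslink repair genes, whose medians were -0.04, 0.09, 0.07 and -0.03. Their unadjusted p was under 0.05 for 1, 1, 1 and 8 genes, against 1963 of 16966 named genes. Outside these lists, Polg, Smc3 (formerly Cspg6) and Hmgn1, which the study placed under DNA repair, rose by 0.45, 0.48 and 0.45. Of 44 apoptosis genes, 1 rose, Bag1, which binds BCL2 and HSP70 and counters cell death. Outside this list, the study's apoptosis genes Hells and 1700003F12Rik rose by 0.52 each and Opa1 fell by 0.42. Bcl2l15, named for its likeness to BCL2, fell by 0.49. The genes outside the lists were picked here after their values were seen.

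Cell division genes gave 3 rises among 72 genes of the G2-M transition and mitosis, with a median of -0.01 and no fall. Kif20a, a kinesin of cytokinesis, was at 11.81, 12.02, 11.84, 11.75 and 11.77 in the controls and at 12.49, 12.59, 12.69, 12.27 and 12.27 in the exposed mice. The groups were separate, and Kif20a rose by 0.63 (SE 0.11, 1.54-fold, adjusted p = 0.00879). Fzr1, the CDH1 activator of the anaphase-promoting complex, rose by 0.53 (adjusted p = 0.0148), and Cenpf, a kinetochore protein, by 0.52 (adjusted p = 0.0338). At an unadjusted p under 0.05, 13 of the 72 were higher and 7 lower, against 977 and 986 of 16966 named genes. None of 32 G1-S genes was called, and 1 of 47 DNA replication genes rose, Hells, a remodelling ATPase of the SNF2 family (0.52, adjusted p = 0.0356). At an unadjusted p under 0.05 (limma), 0 G1-S genes were higher and 2 lower. For DNA replication these counts were 4 and 8, with a median of -0.03.

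Germ cell lists held few calls. Of 46 genes of round spermatids and the acrosome, Adam1b rose and Adam18 fell, both of the ADAM family of sperm surface proteins. Adam1b was at 11.67, 11.78, 11.65, 11.57 and 11.70 in the controls and at 12.42, 12.36, 12.41, 12.09 and 12.27 in the exposed mice. It rose by 0.64 (SE 0.10, adjusted p = 0.00551) with the groups well apart. Adam18 fell by 0.49 (SE 0.12, adjusted p = 0.0447), from 12.54 ± 0.13 to 12.05 ± 0.21 (SD, n = 5 each). No call was made among 22 spermatogonial, 44 meiotic and 47 flagellar genes, with medians of 0.05, -0.05 and -0.06. At an unadjusted p under 0.05 (limma), 9 of the 46 genes of round spermatids and the acrosome were higher and 6 lower. The counts were 1 and 0 for the spermatogonial, 3 and 6 for the meiotic and 3 and 2 for the flagellar genes. Over the 16966 named genes they were 977 and 986. The germ cell RNA helicase Ddx4 (0.16), the RNA-binding protein Dazl (0.10) and the ubiquitin hydrolase Uchl1 (-0.21) were the brightest spermatogonial genes. The summed signal of the 46 spermatid and acrosome genes was 394321 to 407103 in the controls. It was 336713 and 334697 in B[a]P 4 and 5, and 395261 to 397748 in the other exposed mice. The mean log2 level of these 46 genes, relative to the control average, was -0.07 to 0.05 in the controls and -0.13 to 0.06 in the exposed mice. It was 0.01 in B[a]P 4 and -0.13 in B[a]P 5. A sum is weighted to the brightest probes, and 38 probes with a control mean over 15 had medians of -0.19 and -0.27 in these mice. Whether spermatid content differed was not tested.

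Markers of somatic cells were mostly level. No Sertoli marker of 29 was called. The brightest were Ctsl, Cst9 and Clu at 0.18, 0.17 and 0.27, and Wt1, the transcription factor of Sertoli cell identity, was at -0.48 (interval -0.81 to -0.15, adjusted p = 0.202). The actin-binding protein transgelin, Tagln, rose by 0.43 (adjusted p = 0.0405) as 1 of 14 peritubular myoid and smooth muscle genes, while Acta2, smooth muscle actin, was at 0.05 and Myl9, its myosin light chain, at -0.08. C1qc, a complement subunit of macrophages, rose by 0.44 (adjusted p = 0.0498) as 1 of 19, while C1qa, its partner, was at 0.20 (adjusted p = 0.80) and Aif1 at -0.04. The groups overlapped for Tagln and for C1qc, and each of these calls was kept in 2 of the 10 fits without a mouse. None of 16 endothelial, 5 red blood cell, 12 epididymal and 9 fat genes was called. Of the brightest endothelial genes, Plvap, of endothelial fenestrae, was at 0.38 (adjusted p = 0.0514), Vwf at -0.12 and Cldn5 at -0.13. The median of the 16 was -0.02. The mean of the red blood cell genes was -0.09 to 0.09 in the controls and 0.06 to 0.35 in the exposed mice. The fat genes Fabp4 and Cidea were at 0.81 (interval -0.10 to 1.71) and -0.44 (interval -0.69 to -0.19), and Adipoq, adiponectin, at -0.03. Whether blood or fat in the samples took part in any change was not tested.

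**Figure D4:**
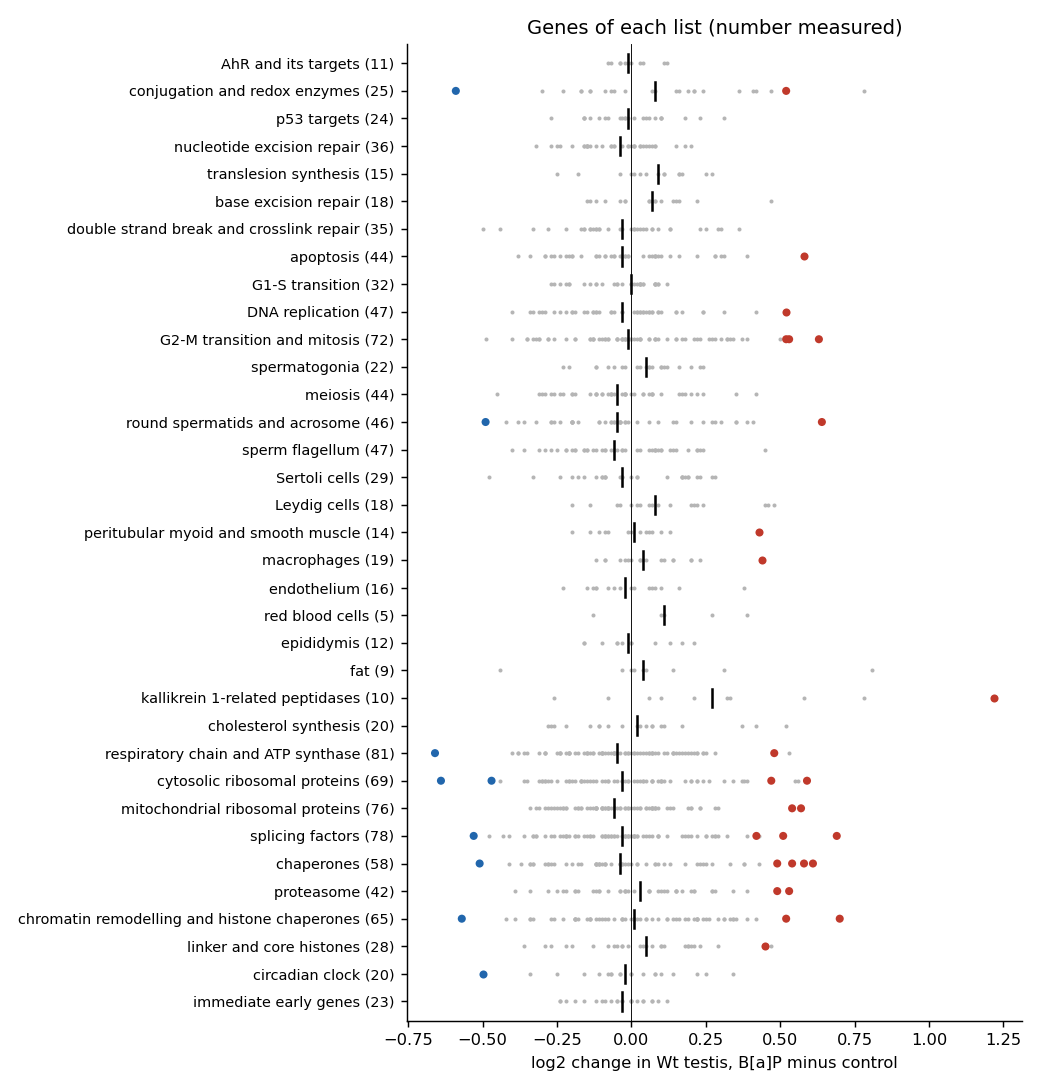
Log2 change (Wt B[a]P minus Wt control) of the genes of 35 lists, each by its brightest probe, with the number measured in brackets. Grey points did not pass the test, red ones rose and blue ones fell, and the black bar is the median of the list; most medians lie within 0.1 of 0, and the kallikrein list is at 0.27.

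Of the machinery for making and folding proteins, chaperones had the most calls, with 4 rises and 1 fall among 58 genes and a median of -0.04. St13, the HSC70-interacting protein Hip, rose by 0.61 (adjusted p = 0.0103), Bag1 by 0.58 (adjusted p = 0.00581), Tcp1, a subunit of the chaperonin CCT, by 0.54 (adjusted p = 0.00937), and Stip1, the HSP70-HSP90 organising protein, by 0.49 (adjusted p = 0.0227). Bag1 was at 12.07, 12.04, 12.06, 11.98 and 11.93 in the controls and at 12.63, 12.62, 12.77, 12.38 and 12.55 in the exposed mice. The control values of Bag1 differed little and lay below all exposed values. Dnajc2, a ribosome-bound J-domain cochaperone, fell by 0.51 (adjusted p = 0.0374). At an unadjusted p under 0.05, 9 chaperone genes were higher and 11 lower, the called genes included. Of the 16966 named genes, 977 and 986 were. Psma1 and Psmd7, subunits of the proteasome core and lid, rose by 0.53 (adjusted p = 0.0227) and 0.49 (adjusted p = 0.0374) among 42 genes.

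Ribosomal genes went both ways. Rpl7 rose by 0.59 (adjusted p = 0.0067) and Rpl5 by 0.47 (adjusted p = 0.0374), while Rps13 fell by 0.64 (adjusted p = 0.0285) and Rplp1 by 0.47 (adjusted p = 0.0447), among 69 cytosolic ribosomal proteins with a median of -0.03. Rps13 was at 13.89, 14.06, 13.96, 14.03 and 13.92 in the controls and at 13.42, 13.14, 13.59, 13.43 and 13.10 in the exposed mice, with no overlap. Such genes have many processed pseudogenes that a probe can also bind. Rplp1 lay near the top of the scale, where 38 probes with a control mean over 15 had a median of -0.19 in B[a]P 4 and -0.27 in B[a]P 5 against -0.04 to 0.01 in the other Wt arrays, and its call was lost in all 10 fits without a mouse. Of 76 mitochondrial ribosomal proteins, Mrps12 and Mrpl43 rose, by 0.57 (adjusted p = 0.0113) and 0.54 (adjusted p = 0.0374). Their calls were kept in 8 and 2 of the 10 fits without a mouse. The median of the 76 was -0.06. At an unadjusted p under 0.05 (limma), 3 were higher and 8 lower, against 977 and 986 of 16966 named genes.

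Of 81 genes of the respiratory chain and ATP synthase, Ndufa9 fell, as given above, and Atp5j2, a subunit of the ATP synthase, rose by 0.48 (adjusted p = 0.0447). At an unadjusted p under 0.05, 6 were higher and 13 lower, against 977 and 986 of 16966 named genes, and the median was -0.05. Of 78 splicing factors, Hnrnpf, Pcbp2, a poly(C)-binding protein (0.51, adjusted p = 0.0261), and Rbm5, a spliceosome regulator (0.42, adjusted p = 0.0447), rose and Alyref fell. Of 65 genes of chromatin remodelling and histone chaperones, Smarca2 and Hells rose, and Arid2, a subunit of the PBAF complex, fell by 0.57 (adjusted p = 0.0261). Arid2 was at 11.69, 11.79, 11.68, 12.00 and 11.83 in the controls and at 11.37, 11.21, 11.36, 11.04 and 11.18 in the exposed mice, which lay below the controls throughout. Of 28 histones and high-mobility-group proteins, Hmgn1, which binds nucleosomes, rose by 0.45 (adjusted p = 0.0447). The core histone gene H3c14, which is not on the list and was named after its values were seen, rose by 0.42 (adjusted p = 0.0454). Of 20 clock genes, Rora, a nuclear receptor that activates Bmal1, fell by 0.50 (adjusted p = 0.0292). No call was made among 20 genes of cholesterol synthesis and 23 immediate early genes.

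The same contrast in the Xpc-/- mice, which share no animal with the Wt comparison, gave values for the 145 probes. There 0.585% of all probes rose and 0.0623% fell. All 145 probes had the same sign of change in Xpc-/- as in Wt. In Xpc-/-, 99 of the 103 rises and 24 of the 42 falls had an unadjusted p under 0.05 (limma). Of all probes, 14.3% did. By the adjusted p, 48 of the 103 probes that rose in Wt also rose in Xpc-/- testis, and 3 of the 42 that fell in Wt also fell. Without Xpc-/- control 1 and 2, these counts were 57 and 11. The median change of the rises was 0.51 in Wt and 0.45 in Xpc-/-, and that of the falls -0.52 and -0.25, or -0.34 without those 2 arrays. Since the probes were chosen by their change in Wt, a smaller median in the other genotype is a description. Both contrasts also share 1 estimate of the spread.

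The difference between the 2 effects was tested for every probe, and none passed (limma, smallest adjusted p 0.999). At an unadjusted p under 0.05 there were 649 probes, and the ordinary linear model also gave 0 calls. Of the 103 rises 4 and of the 42 falls 13 had such a p, beside 649 of all 20868 probes. These probes were chosen by their change in Wt, which is part of the difference. Their counts and unadjusted p-values are therefore a description. Xpc-/- control 1 and 2, which stood apart, also entered the difference. For Hnrnpf the effect was 0.69 in Wt and 0.65 in Xpc-/-, a difference of 0.04. For Ndufa9 it was -0.66 and -0.26, a difference of -0.40 (unadjusted p = 0.0187), and for Rbm25 -0.61 and -0.07, a difference of -0.54 (unadjusted p = 0.00502). Klk1b11 changed by 1.22 and 0.70, a difference of 0.52 (unadjusted p = 0.0903). These differences did not pass the adjustment, which does not show that the genotypes respond alike.

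**Figure D5:**
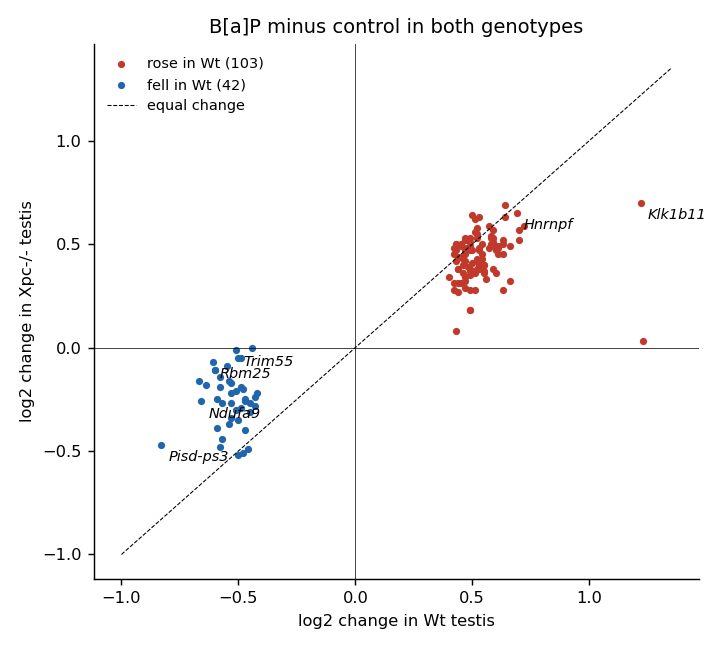
Log2 change after B[a]P in Xpc-/- testis against that in Wt testis for the 145 probes called in Wt; the dashed line marks equal change. The rises (red) lie near the line with medians of 0.51 and 0.45, and most of the falls (blue) lie above it, with medians of -0.52 and -0.25.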

How the data were processed

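Whole testis RNA was hybridized on Agilent 22K Mouse arrays, scanned on a GenePix scanner and read with Imagene 8.0.1. The values deposited by the authors are signals on the natural log scale. The authors had given every scan the same distribution (quantile method), used the pooled Cy3 signal to adjust the Cy5 signal, and merged repeated spots into 1 value per probe. With a fixed distribution, a shift of all genes cannot be seen. The deposited values were divided by the natural log of 2 to give log2 values, and no probe was left out. Array medians were 5.23 to 5.24 on the deposited natural log scale. The table holds no flags for detection or saturation, and the number of arrays limits the precision. No source used here names a genome build for the probes.

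Gene symbols came from GEO's platform annotation (18303 probes with 1 symbol, 2565 with none), updated through Entrez IDs for 18134 probes to the RefSeq table of GRCm38.p6, used for names only. Of 16966 symbols, 1210 had several probes.

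All 20 arrays entered 1 linear model with 4 group means (limma 3.58.1, R 4.3.3), and the contrast Wt B[a]P minus Wt control was adjusted by Benjamini-Hochberg over 20868 probes, with a threshold of 0.05. The fit was tested on simulated data. The study's two-way analysis of variance tested treatment over both genotypes; the contrast here is the treatment effect within Wt, and the ordinary model per probe was an alternative. Named genes were the 15 that rose most and the 15 that fell most among called probes with a symbol, every called list gene, and the brightest genes of the AhR, p53 and cell marker lists. The comparison and its 35 lists were chosen with earlier results of these data known. Alternatives changed the arrays in the fit, the variance model, the scaling, the filter on dim probes and the weights, and 2 were added after seeing the data.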

Additional observations from a re-analysis of the deposited data

Results flagged for a closer look

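Among 170 groups of 5 Wt mice, over 85 named genes, 10 held a mouse whose gap to the nearest other mouse exceeded 0.71 of the group's range. Chance gives such a gap in about 1 in 20 groups. In the called genes, control 5 was low for Ide (11.62, the others 11.96 to 12.07), Bbx (9.92, the others 10.47 to 10.59), Ndufa9 (11.96, the others 12.12 to 12.17) and Mrpl43 (10.98, the others 11.61 to 11.66). For Ide, Bbx and Mrpl43 this mouse widened the difference, and for Ndufa9 it lay towards the exposed mice. Control 4 was low for Dzip1 (8.39, the others 9.10 to 9.19) and high for Fancd2os (10.49, the others 9.89 to 9.95). Control 3 was high for Gsto1 (8.35, the others 7.85 to 7.95). In genes that were not called, control 4 was low for Tiparp (8.12, the others 8.94 to 9.15), control 3 was high for Cidea (9.86, the others 9.46 to 9.58) and B[a]P 1 was high for Cyp17a1 (11.93, the others 11.51 to 11.59).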

How the results depend on the processing

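All 145 probes kept their direction under each alternative that tested them, and 1 was removed by the filter on dim probes. The counts of rises and falls (103 and 42) were 291 and 237 with only the 10 Wt arrays, 254 and 193 without Xpc-/- control 1 and 2, and 367 and 336 with array weights, and these 3 fits kept all 145 calls. With the ordinary linear model per probe the falls were 26 and the calls kept were 96, and with an intensity trend and robust variances the counts were 57 and 16. Leaving out each Wt array in turn gave 16 to 150 rises and 1 to 41 falls. Added after seeing the data, the Leydig marker mean as a covariate gave 52 and 12. Without Wt control 4 and 5 the limma counts were 0 and 0, with 1281 probes at an unadjusted p under 0.05 (2231 with all mice), and only 3 control mice remained. The cause of these shifts was not tested. The filter on dim probes and both scaling changes left the counts within 1.5 times, as did the mean of all probes of a gene for list calls (36 against 34). Equal replicate numbers did not pair the mice, as their deviations correlated at -0.14 to 0.08, and the replicate block gave 111 and 42, of which 128 calls were shared. The difference between genotypes had 0 calls in each fit that tested it, with 649 probes at an unadjusted p under 0.05. For 85 named probes, 1784 single values were compared. Only the 53 called probes could lose a call, and 393 of their values did, while 0 reversed their sign. Of the values of uncalled probes, 9 gained a call. Sign changes of uncalled probes, such as Tiparp (-0.19 to 0.12), were not counted.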
